A study of Gallus gallus with 2 samples.

Results

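The matrix proteases and their inhibitors in chicken peritoneum were the 52 genes, of 29558 in the deposited count matrices, whose symbol begins with MMP, TIMP or ADAM followed by a digit, or with ADAMTS. They comprised 10 secreted matrix metalloproteinases (MMPs), 4 membrane-type MMPs, 3 tissue inhibitors of metalloproteinases (TIMPs), 13 ADAM genes, 18 ADAMTS genes and 4 ADAMTS-like genes. *MMP14* and *TIMP1* were not analysed here. Single-cell RNA sequencing had been performed on visceral peritoneum with dark pigment (hyperpigmented visceral peritoneum, HVP) and on visceral peritoneum of usual colour (Normal) from Huiyang Bearded Chickens aged 40 days. Tissue of 10 birds was used per group, and each group was 1 library. Both tissues had been dispersed with collagenase and cleared of red cells by lysis, and both libraries were made with the same droplet chemistry, which counts the 3′ ends of transcripts by unique molecular identifier (UMI). No treatment or engineered allele was involved, and the birds were not told apart within a library.

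MMPs are zinc-dependent enzymes that are made as inactive proenzymes and cut collagens, gelatin and other matrix proteins. ADAMs sit in the cell membrane and release the outer parts of other membrane proteins, whereas ADAMTS enzymes are secreted and cut proteoglycans, procollagens and von Willebrand factor. TIMPs bind the active sites of these enzymes, and the serous lining, stroma and vessel walls of the peritoneum depend on the resulting turnover of matrix.

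After barcodes with at most 1000 genes had been left out, 5866 cells with 34391591 UMIs (median 5345 per cell) remained in the HVP-labelled library and 5464 cells with 24927669 UMIs (median 3818) in the Normal-labelled library. The names of the deposited files give each library the opposite group to its title. The groups used here are those of the titles, and every direction below would turn round if the file names were right. *DCT*, a melanin synthesis enzyme, had 64 UMIs, or 1.86 counts per 1e6 UMIs (CPM), in the HVP-labelled library and 119 UMIs (4.77 CPM) in the Normal-labelled library. The libraries shared 14 barcodes. With 1 library per group no test between groups was possible. All intervals are at 95% and cover counting error only, not differences between birds or preparations. Fewer cells of a type and less RNA per cell cannot be told apart in values over all cells.

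Cells were grouped by marker genes into 7 classes named in both libraries: fibroblast-like, tenocyte-like, blood endothelial-like, melanocyte-like, Schwann-like, mesothelial-like and satellite cell-like. Markers did not give 1 shared name to 3 further pairs of clusters, which were matched by their leading genes and are called the *FSHR* cluster (568 HVP cells and 278 Normal cells), the *APOC3* cluster (305 and 342 cells) and the *NPY7R* cluster (658 and 506 cells). The *FSHR* cluster carried 4 of 9 fibroblast markers (*COL1A1*, *COL1A2*, *LUM* and *DPT*) in the Normal-labelled library, where the chondrocyte marker *ACAN* was among its leading genes. In the HVP-labelled library fewer than 3 markers of any list were counted in it, *ACAN* being 1 of them. The *NPY7R* cluster carried smooth muscle or pericyte markers. In the HVP-labelled library the *APOC3* cluster also held 6230 UMIs of the immunoglobulin light chain gene *IGLL1*, against 38 in the Normal-labelled library. The members themselves were left out of the genes used for clustering.

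All 52 members together took 0.550% of the UMIs in the HVP-labelled library and 0.474% in the Normal-labelled library. At least 20 UMIs were found for 47 of them in each library, and the remaining 5 (*MMP7*, *MMP10*, *ADAM11*, *ADAM20L* and *ADAM28*) stayed below that. *ADAM20L* had 2 UMIs in the HVP-labelled library and 0 in the Normal-labelled library, where the interval of a count of 0 reaches 0.148 CPM. Of the 47 measured members, 33 had the same leading class in both libraries, meaning the class with the highest CPM of the 7. That is 70.2% of the members, and 51.3% of 14610 genes did so. Over all 10 classes and clusters the number was 31 of 47, beside 50.6% of all genes. Shares of all genes, here and below, were not matched to the members in UMI count. For the 7 classes the share of all genes was 49.7% at a minimum of 10 UMIs and 53.2% at a minimum of 50 UMIs. The first and second ranks were often close: with every class and cluster of a library counted, the intervals of the first and the second did not overlap for 17 of 47 members in the HVP-labelled library (21% of all genes) and 21 of 47 in the Normal-labelled library (23%). A level at least 4-fold above that of all other kept cells, in the same class or cluster of both libraries, was found for 18 members (38.3%) and for 14.4% of all genes. Of these 18, 10 belonged to the *FSHR* cluster, 3 to fibroblast-like cells, 2 each to the *NPY7R* cluster and Schwann-like cells, and 1 to blood endothelial-like cells.

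**Figure D1:**
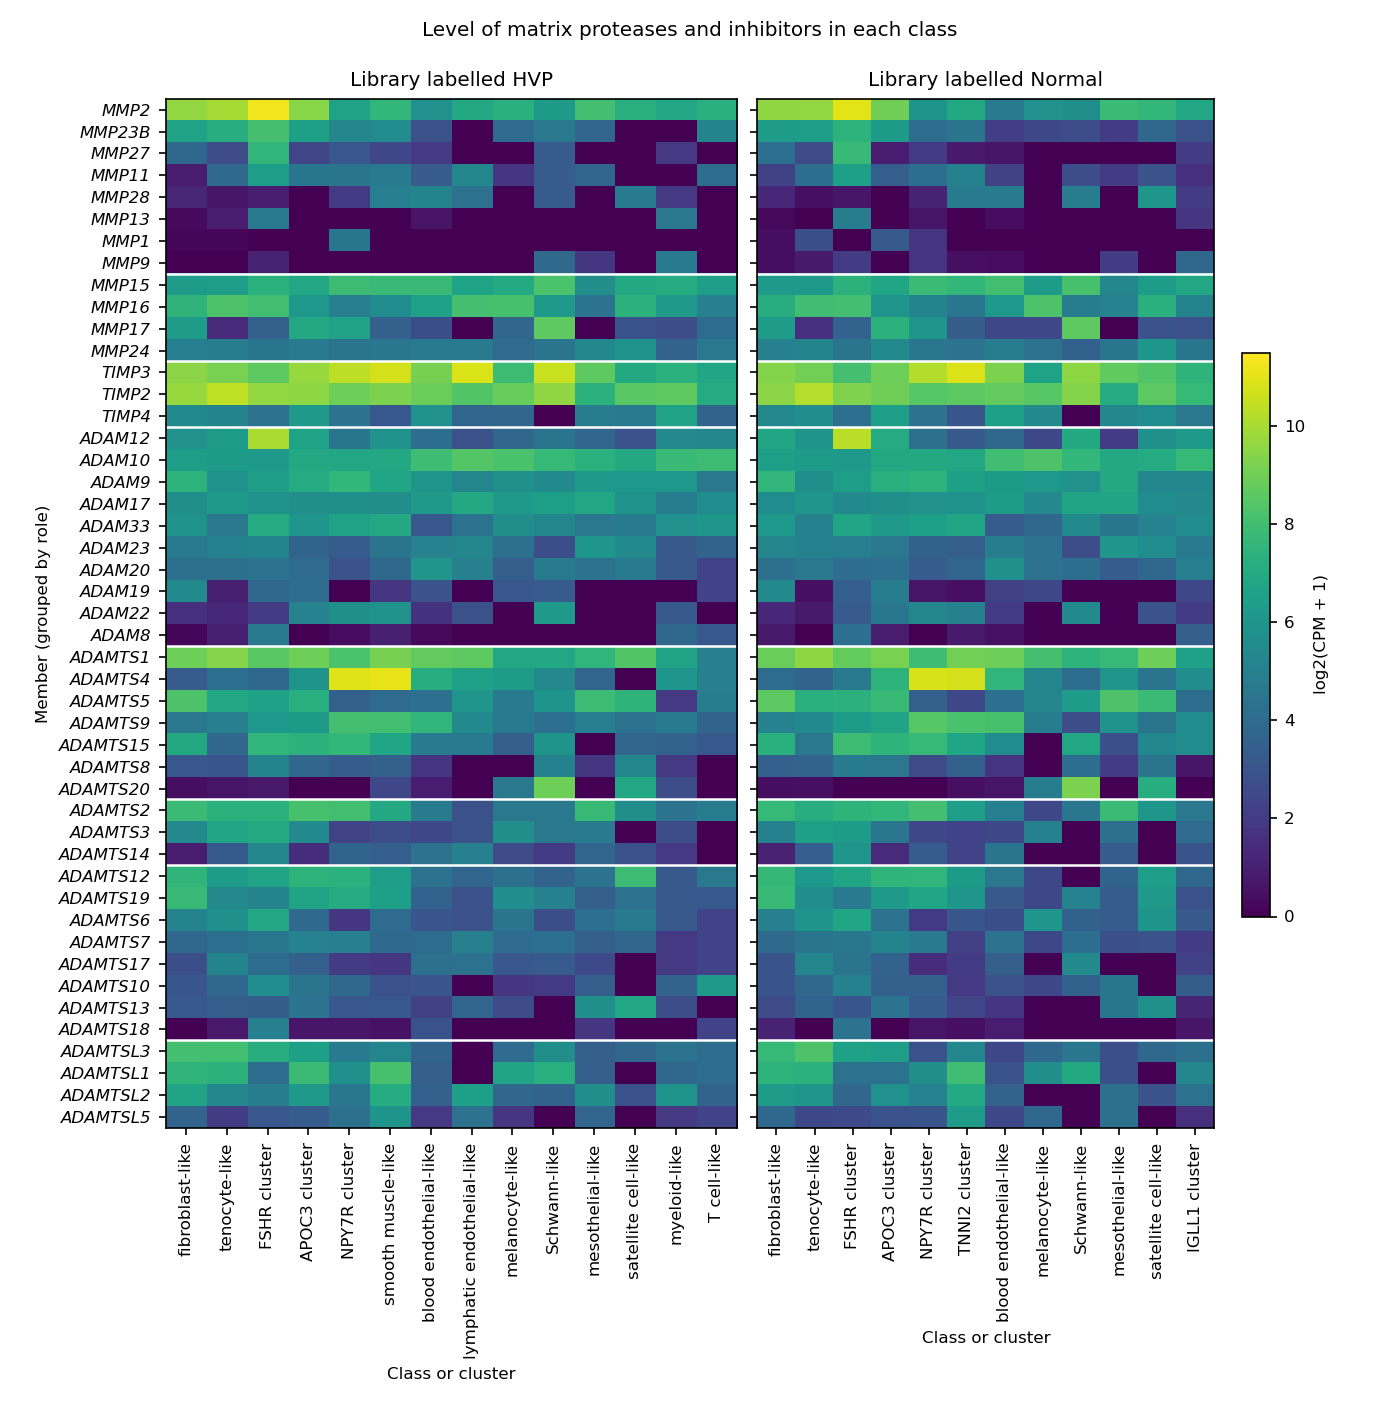
Level of the 47 measured members, as log2(CPM + 1), in each class or cluster of the HVP-labelled library (left) and the Normal-labelled library (right), with white lines between roles. *MMP2* and *ADAM12* are brightest in the *FSHR* cluster, *ADAMTS4* in the *NPY7R* cluster and its muscle-marked neighbours, and *ADAMTS20* in Schwann-like cells, in both libraries.

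Among the secreted MMPs, *MMP2* (gelatinase A, which cuts denatured collagen and type IV collagen) was by far the most abundant. In the *FSHR* cluster it reached 2473 CPM (2425 to 2522) in the HVP-labelled library and 2102 CPM (2032 to 2174) in the Normal-labelled library. Tenocyte-like cells came next, with 982 CPM and 791 CPM (fibroblast-like cells were close to them in the Normal-labelled library, with 761 CPM), and blood endothelial-like cells were lowest, with 55.8 CPM and 26.0 CPM. The order of these 3 was thus the same in both libraries, and the gap between the first and the second exceeded the counting intervals. After each cell was thinned to 2000 UMIs, 95.2% of *FSHR* cluster cells in the HVP-labelled library and 95.7% in the Normal-labelled library had a *MMP2* UMI (98.9% and 99.3% without thinning). In blood endothelial-like cells the thinned shares were 7.67% and 4.89% (12.4% and 9.21% without thinning). Free RNA in the droplets can give shares of this size in cells that do not express a gene.

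The same cluster led several scarcer secreted MMPs. *MMP27*, a little studied secreted member, had 191 CPM (178 to 205) there in the HVP-labelled library and 222 CPM (200 to 246) in the Normal-labelled library, while fibroblast-like cells, in second place, had 13.4 CPM and 17.4 CPM. *MMP11* (stromelysin-3) had 83.7 CPM and 89.6 CPM in the *FSHR* cluster, and *MMP23B* had 275 CPM and 173 CPM. *MMP13*, a collagenase that falls outside the naming rule and was picked after its values were seen, had 23.7 CPM and 28.0 CPM there, but 1 cell of the HVP-labelled library alone held 23 of its 116 UMIs. *MMP28* (epilysin) differed from these, with 35.5 CPM in blood endothelial-like cells of the HVP-labelled library and 26.0 CPM in those of the Normal-labelled library, against 0.979 CPM and 0.622 CPM in the *FSHR* cluster. Satellite cell-like cells of the Normal-labelled library were higher still, at 67.3 CPM, with a wide interval (32.3 to 124). Smooth muscle-like cells, named in the HVP-labelled library only, had 28.9 CPM (22.0 to 37.4), overlapping the blood endothelial-like interval (30.8 to 40.7). In the Normal-labelled library 4.68% of the *TNNI2* cluster, which carried smooth muscle markers, had a *MMP28* UMI after thinning. The share of blood endothelial-like cells was 5.85%.

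*MMP9* and *MMP1* were nearly silent. *MMP9* (gelatinase B, made by granulocytes and macrophages in mammals) had 20 UMIs in 13 cells of the HVP-labelled library and 38 UMIs in 23 cells of the Normal-labelled library. It was highest in myeloid-like cells (25.2 CPM) in the HVP-labelled library and in the *IGLL1* cluster, a mixed leukocyte cluster, in the Normal-labelled library (13.3 CPM). *MMP1* (interstitial collagenase), also picked after its values were seen, had 68 UMIs in 10 cells of the HVP-labelled library, where 82.4% lay in 3 cells, and 31 UMIs in 10 cells of the Normal-labelled library, where 74.2% lay in 3 cells. Values of *MMP1* therefore describe single cells. *MMP1* and *MMP27* are neighbours in a run of 5 MMP genes on chromosome 1 (*MMP13*, *MMP10*, *MMP1*, *MMP27* and *MMP7*; chr1:182278268-182409907, GRCg7b). Of these, *MMP13* and *MMP27* were both highest in the *FSHR* cluster, where *MMP1* had 0 UMIs in either library. For *MMP13* in the HVP-labelled library, the interval there overlapped that of myeloid-like cells (22.4 CPM, 9.66 to 44.1).

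The membrane-type MMPs, which act at the cell surface, were spread more evenly apart from *MMP17*. *MMP17* is held by a glycolipid anchor, and it had 396 CPM (332 to 469) in Schwann-like cells of the HVP-labelled library and 398 CPM (311 to 501) in those of the Normal-labelled library. The *APOC3* cluster was second, with 124 CPM and 165 CPM. *MMP15* was also highest in Schwann-like cells (305 CPM and 282 CPM), but its interval there overlapped that of the next class in both libraries. *MMP16* was at 281 CPM in melanocyte-like cells and 309 CPM in tenocyte-like cells of the HVP-labelled library, and at 316 CPM and 250 CPM in the same classes of the Normal-labelled library. The orders of these 2 classes differed between the libraries within overlapping intervals. In the *FSHR* cluster *MMP16* had 260 CPM and 267 CPM, the second level of the Normal-labelled library. *MMP24* ranged from 11.2 to 57.1 CPM in the HVP-labelled library and from 11.1 to 67.3 CPM in the Normal-labelled library.

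The inhibitors differed in where they were highest. *TIMP2*, which inhibits MMPs broadly, was highest in tenocyte-like cells, with 1350 CPM (1322 to 1378) in the HVP-labelled library and 1192 CPM (1151 to 1235) in the Normal-labelled library, and second in fibroblast-like cells, with 835 CPM and 716 CPM. *TIMP3*, which binds to the matrix and also inhibits several ADAM and ADAMTS enzymes, was highest in groups whose names were given in 1 library only. Clustered together, both libraries had cells in a smooth muscle-like cluster (343 HVP and 622 Normal cells). The same held for a lymphatic endothelial-like cluster (34 and 19 cells). Lymphatic endothelial-like cells, 34 cells named in the HVP-labelled library only, had 1832 CPM (1628 to 2056). Smooth muscle-like cells, also named in the HVP-labelled library only, had 1709 CPM, and the *TNNI2* cluster, a cluster of the Normal-labelled library with smooth muscle markers led by skeletal muscle genes, had 1923 CPM. Schwann-like cells had 1499 CPM in the HVP-labelled library and 746 CPM in the Normal-labelled library. The *NPY7R* cluster had 1291 CPM of *TIMP3* in the HVP-labelled library and 1170 CPM in the Normal-labelled library. *TIMP4* was the scarcest. It was highest in myeloid-like cells of the HVP-labelled library (97.9 CPM, 68.2 to 136, from 35 UMIs) and in blood endothelial-like cells of the Normal-labelled library (88.3 CPM), with the *APOC3* cluster second in both within overlapping intervals (70.4 CPM and 84.9 CPM). Blood endothelial-like cells of the HVP-labelled library had 56.1 CPM.

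Summed over their genes, MMPs exceeded TIMPs in the *FSHR* cluster of both libraries. The summed TIMP level over the summed MMP level was 0.343 there in the HVP-labelled library and 0.300 in the Normal-labelled library. In the *NPY7R* cluster it was 3.19 and 3.42, and in blood endothelial-like cells 2.35 and 2.62. In all other classes and clusters that were set side by side the TIMP sum was above the MMP sum in both libraries, from 1.02 to 2.43 times. In the *FSHR* cluster *MMP2* made up most of the MMP sum: without it, the other MMPs summed to 1028 CPM and 981 CPM, against TIMP sums of 1202 CPM and 924 CPM. These sums count 3′ ends, which do not scale with transcript length, and say nothing of protein or activity.

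**Figure D2:**
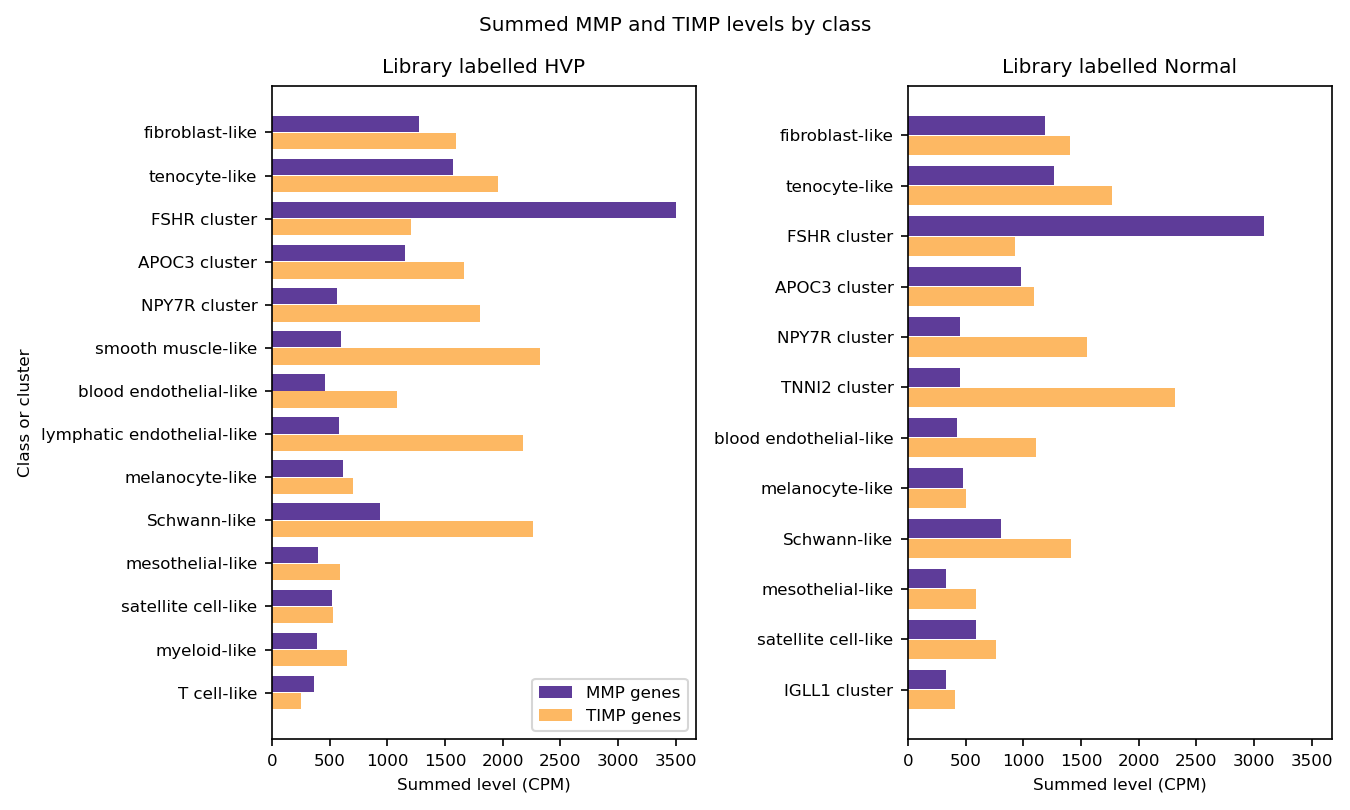
Summed CPM of MMP genes (purple) and of TIMP genes (orange) in each class or cluster of the HVP-labelled library (left) and the Normal-labelled library (right). The MMP bar is the longer one by far in the *FSHR* cluster (3501 CPM in the HVP-labelled library and 3083 CPM in the Normal-labelled library), and the TIMP bar is the longer one in the *NPY7R* cluster.

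Of the ADAMs, *ADAM12* (meltrin alpha, active in mesenchymal and muscle precursor cells) had the sharpest pattern. In the *FSHR* cluster it had 1063 CPM (1032 to 1095) in the HVP-labelled library and 1257 CPM (1203 to 1313) in the Normal-labelled library, and the second place, the *APOC3* cluster, had 99.8 CPM and 132 CPM. After thinning, 72.8% and 80.9% of *FSHR* cluster cells had a UMI (88.6% and 92.8% without thinning), against 2.65% and 1.60% of blood endothelial-like cells (4.88% and 4.38% without thinning). *ADAM19*, its close relative, was instead highest in fibroblast-like cells, at 43.0 CPM and 43.3 CPM. *ADAM8*, a leukocyte protease in mammals, had 24.5 CPM and 17.4 CPM in the *FSHR* cluster. Its level in myeloid-like cells of the HVP-labelled library, 14.0 CPM, did not differ from that beyond the counting intervals.

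The broadly acting sheddases *ADAM10* and *ADAM17* were present in all classes. *ADAM10*, which cuts Notch receptors, had 294 CPM in melanocyte-like cells of the HVP-labelled library and 311 CPM in those of the Normal-labelled library. Lymphatic endothelial-like cells of the HVP-labelled library had 348 CPM (262 to 452), and blood endothelial-like cells had 246 CPM and 248 CPM. The intervals of the highest and the next group overlapped in both libraries. The lowest level of *ADAM10*, in the *FSHR* cluster, was still 72.9 CPM and 70.9 CPM. *ADAM17*, which releases tumour necrosis factor, ranged from 28.0 to 120 CPM in the HVP-labelled library and from 41.1 to 105 CPM in the Normal-labelled library. *ADAM22*, which has no protease activity, was highest in Schwann-like cells (70.4 CPM and 44.2 CPM) with an interval that overlapped that of the next cluster in both libraries. *ADAM9*, *ADAM20*, *ADAM23* and *ADAM33* were led by the *NPY7R* cluster or fibroblast-like cells, blood endothelial-like cells, mesothelial-like cells, and the *FSHR* or *TNNI2* cluster, at 53.5 to 193 CPM.

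Several ADAMTS enzymes that cut the large proteoglycans aggrecan and versican were highest in different cell groups. *ADAMTS4* had 1945 CPM (1896 to 1994) in the *NPY7R* cluster of the HVP-labelled library and 1806 CPM (1743 to 1871) in that of the Normal-labelled library. Smooth muscle-like cells of the HVP-labelled library had 2204 CPM, and the *TNNI2* cluster of the Normal-labelled library had 1715 CPM. In fibroblast-like cells it had 8.75 CPM and 15.6 CPM. After thinning, 74.5% and 75.1% of *NPY7R* cluster cells had a UMI (82.1% and 78.9% without thinning), against 1.68% and 2.31% of fibroblast-like cells (4.43% and 4.42% without thinning). *ADAMTS5* ran the other way, with 312 CPM and 384 CPM in fibroblast-like cells and 10.5 CPM and 10.5 CPM in the *NPY7R* cluster. *ADAMTS5* lies 26.9 kb from *ADAMTS1* on chromosome 1 (chr1:103129744-103210607, GRCg7b), and *ADAMTS1* was highest in tenocyte-like cells, with 685 CPM and 749 CPM. *ADAMTS9* was highest in the *NPY7R* cluster (279 CPM and 363 CPM), followed among the shared classes by blood endothelial-like cells (189 CPM and 281 CPM).

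*ADAMTS20*, whose loss in mice leaves an unpigmented belt because melanoblasts are lost, was nearly confined to Schwann-like and satellite cell-like cells among the groups set side by side. Schwann-like cells had 499 CPM (427 to 580) in the HVP-labelled library and 608 CPM (500 to 733) in the Normal-labelled library, from 170 and 110 UMIs. Satellite cell-like cells had 114 CPM and 141 CPM, and melanocyte-like cells 23.0 CPM and 27.4 CPM. After thinning, 53.0% (40.3% to 65.4%) and 48.9% (33.7% to 64.2%) of Schwann-like cells had a UMI, against 0.0672% and 0.0797% of fibroblast-like cells. Without thinning the shares were 73.1% and 68.1% of Schwann-like cells and 0.201% and 0.0789% of fibroblast-like cells, at median depths of 4450 and 3374 UMIs in Schwann-like and 5600 and 4070 UMIs in fibroblast-like cells. These Schwann-like cells numbered 67 in the HVP-labelled library and 47 in the Normal-labelled library.

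**Figure D3:**
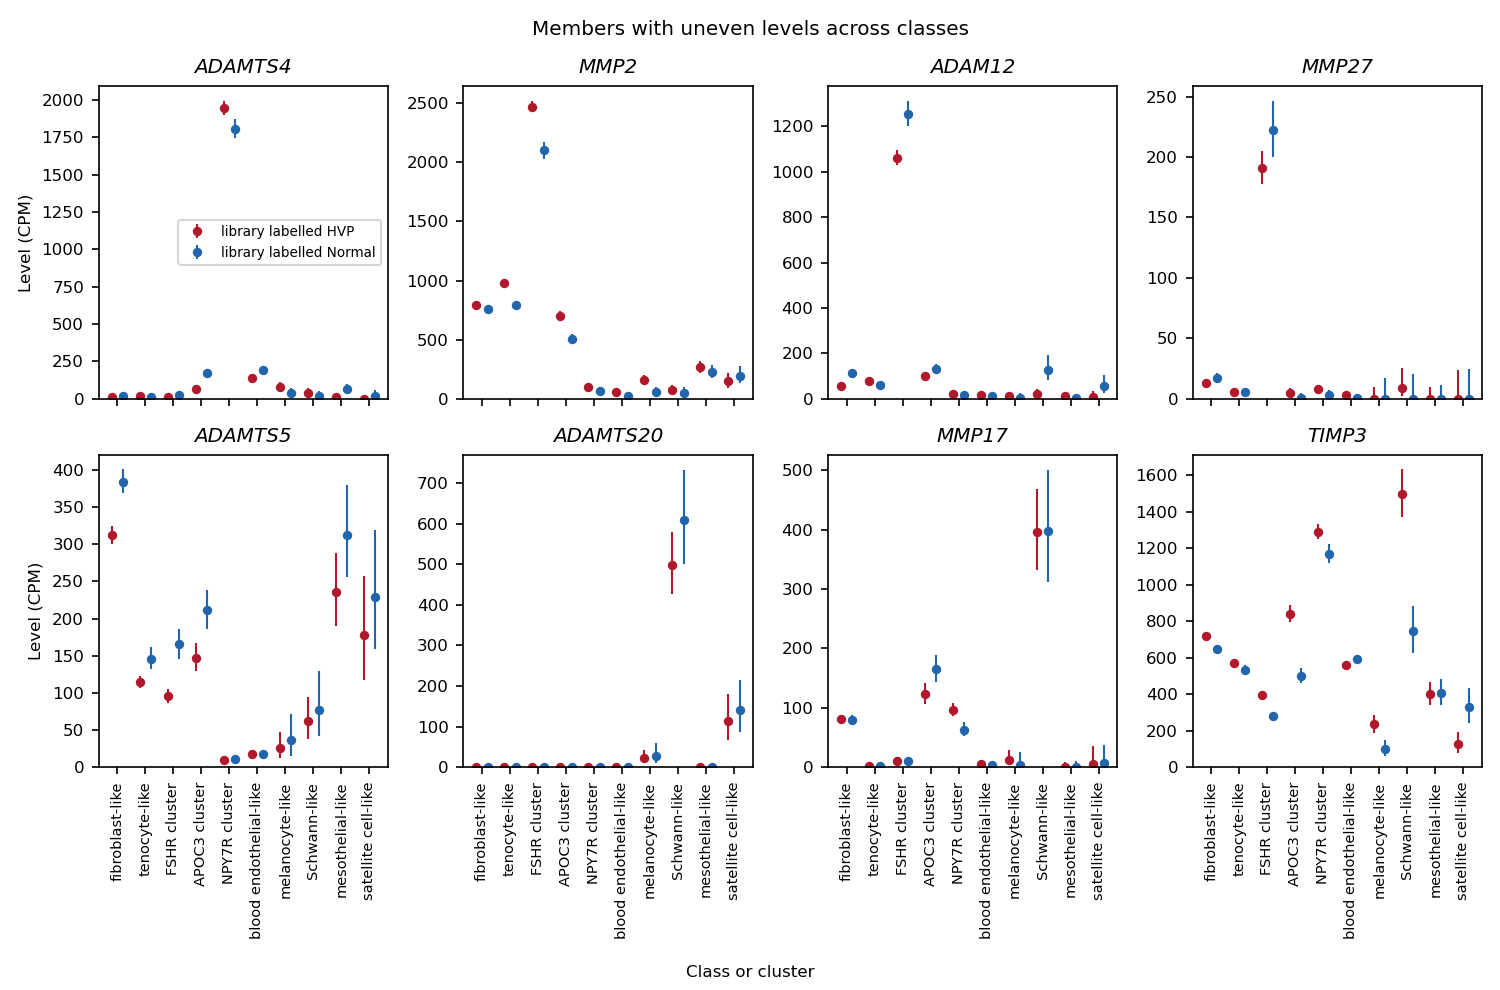
Level (CPM, linear axis from 0) of 8 members in the 10 classes and clusters set side by side, for the HVP-labelled library (red, left point of each pair) and the Normal-labelled library (blue, right point), with exact Poisson 95% intervals as bars. Each panel peaks in the same class or cluster in both libraries, except *TIMP3*, which is highest in Schwann-like cells (1499 CPM) in the HVP-labelled library and in the *NPY7R* cluster (1170 CPM) in the Normal-labelled library.

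The procollagen N-proteinases, which trim the ends of fibrillar procollagens, were all measured. *ADAMTS2* was the most abundant. It was highest in the *APOC3* cluster of the HVP-labelled library (285 CPM, against 197 CPM in that of the Normal-labelled library) and in the *NPY7R* cluster of the Normal-labelled library (265 CPM, beside 260 CPM in that of the HVP-labelled library). Fibroblast-like cells had 231 CPM and 207 CPM and mesothelial-like cells 220 CPM and 226 CPM. *ADAMTS3* was high in the *FSHR* cluster (130 CPM and 80.3 CPM) and in tenocyte-like cells (112 CPM and 90.5 CPM). *ADAMTS14* was highest in the *FSHR* cluster, at 38.7 CPM and 62.2 CPM. *COL1A1*, which encodes a chain of their substrate type I procollagen, had 71094 CPM and 62215 CPM in fibroblast-like cells. It had 61369 CPM and 56470 CPM in the *FSHR* cluster, and 52961 CPM and 43936 CPM in tenocyte-like cells. In the clusters that led *ADAMTS2* it was lower, with 13875 CPM and 10045 CPM in the *APOC3* cluster. The *NPY7R* cluster had 2047 CPM and 1189 CPM of *COL1A1*.

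Among the other ADAMTS genes, *ADAMTS6* (115 CPM and 112 CPM), *ADAMTS18* (31.6 CPM and 19.9 CPM) and *ADAMTS10* (47.0 CPM and 31.7 CPM) were highest in the *FSHR* cluster of the groups set side by side. *ADAMTS19* led in fibroblast-like cells with 218 CPM and 216 CPM. *ADAMTS13*, which cuts von Willebrand factor, was not at its highest in endothelial cells: it had 114 CPM and 53.8 CPM in satellite cell-like cells and 3.46 CPM and 2.56 CPM in blood endothelial-like cells. The satellite cell-like values rest on 18 and 8 UMIs. Their intervals overlapped those of mesothelial-like cells, which came second in both libraries (52.5 CPM and 21.1 CPM). The ADAMTS-like genes encode matrix proteins without a protease domain. *ADAMTSL3* was highest in fibroblast-like and tenocyte-like cells (265 and 262 CPM in the HVP-labelled library, 207 and 314 CPM in the Normal-labelled library), and *ADAMTSL1*, *ADAMTSL2* and *ADAMTSL5* were highest in smooth muscle-like cells of the HVP-labelled library (286, 138 and 61.9 CPM) and in the *TNNI2* cluster of the Normal-labelled library (252, 130 and 81.0 CPM).

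Over all kept cells, few members passed 2-fold between the libraries. *ADAMTS18* (ratio of HVP over Normal 2.67, 1.93 to 3.76, from 177 and 48 UMIs) and *MMP23B* (2.14, 2.00 to 2.28) were at least 2-fold higher in the HVP-labelled library, and *MMP9* (0.381, 0.210 to 0.672, from 20 and 38 UMIs) was at least 2-fold lower. These are 2 and 1 of 47 members, beside 2.11% of 15752 genes at least 2-fold higher and 5.17% at least 2-fold lower. Keeping instead cells with 300 to 4000 genes and under 5% mitochondrial UMIs left none of these 3 past 2-fold, and *MMP28* was then at least 2-fold lower. *MMP9* was also not past 2-fold with more than 500 genes (0.820), nor *MMP23B* as the mean over cells (1.99) or with each cell thinned to 2000 UMIs (1.88). The interval lay above 1 for 27 of 47 members (18.4% of all genes) and below 1 for 11 (31.4%), and the median ratio was 1.14, against 0.957 over all genes. *ADAMTS3* (1.99), *MMP2* (1.68, with 764 CPM and 454 CPM) and *MMP16* (1.55) were among the higher members, and *ADAMTS9* (0.609, with 97.8 CPM and 161 CPM), *ADAMTSL5* (0.748) and *TIMP4* (0.754) among the lower ones. *TIMP3* was nearly equal (1.02, 1.00 to 1.04, with 732 CPM and 718 CPM), and *TIMP2* had a ratio of 1.40.

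The make-up of the libraries also differed, and its part in these ratios was not tested. Tenocyte-like cells gave 18.2% of UMIs in the HVP-labelled library and 9.17% in the Normal-labelled library, the *FSHR* cluster 12.8% and 8.18%, and blood endothelial-like cells 16.6% and 28.4%, when both libraries were clustered together. With both libraries weighted to the same UMI share per cluster, an alternative added after seeing the data, the median ratio of the members was 1.04, and 34 of 47 members lay within 1.2-fold of equal, against 20 of 47 without weighting. The same weighting took the share of all genes within 1.2-fold to 66.6%, against 54.9% without it. Weighted, *MMP27* had a ratio of 1.00, against 1.48 without weighting, and *MMP2* a ratio of 1.22. *ADAMTS18* stayed at 2.17, *MMP23B* was at 1.57 and *MMP9* at 0.438.

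**Figure D4:**
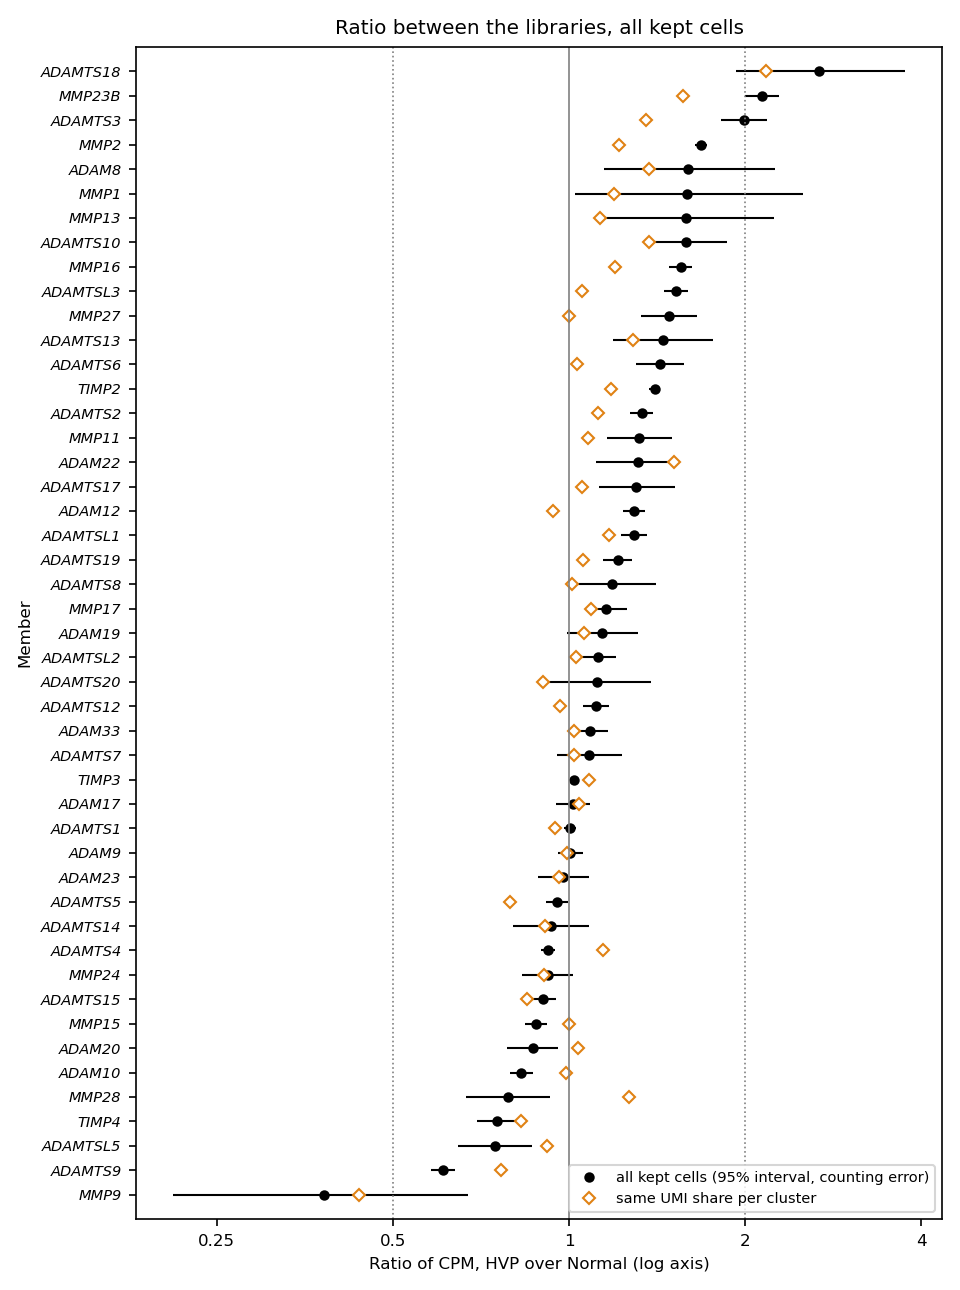
Ratio of CPM, HVP over Normal (log axis), for each of the 47 measured members over all kept cells (black points with 95% counting intervals) and with both libraries weighted to the same UMI share per cluster (open orange diamonds); dotted lines mark 2-fold. *ADAMTS18* (2.67) and *MMP23B* (2.14) lie above 2-fold and *MMP9* (0.381) below, and most diamonds lie nearer to 1 than their points.

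Within classes the members were set against all genes with at least 20 UMIs there. In fibroblast-like cells 34 of 38 members with at least 20 UMIs lay within 1.5-fold (88.9% of all genes did), with a median ratio of 1.00 (0.965 over all genes). None was at least 2-fold higher there (1.33% of all genes) and 2 were at least 2-fold lower (2.03%). These were *MMP11*, from 8 and 22 UMIs, and *ADAM12* (0.495, with 55.5 CPM and 112 CPM). In the 2 fibroblast-like clusters formed from both libraries together, *ADAM12* had ratios of 0.796 and 0.599. *MMP11* was at 2.02 (from 3 and 1 UMIs) and 0.282 (from 5 and 9 UMIs) in them. In tenocyte-like cells 34 of 37 lay within 1.5-fold (86% of all genes) with a median of 0.956 (1.01 over all genes), and 0 were at least 2-fold higher (3.2%) or lower (1.13%). In the *FSHR* cluster the median was 1.04 (1.01 over all genes), 34 of 42 lay within 1.5-fold (83.4% of all genes), and 1 of 42 members was at least 2-fold higher (3.85% of all genes) and 0 at least 2-fold lower (1.47%). That member was *ADAMTSL2* (2.14, from 114 and 21 UMIs), and it was at 0.833 in the jointly formed cluster. Of the groups set side by side, the *FSHR* cluster led 12 members in both libraries. Among these, ratios were 1.18 (*MMP2*, 1.13 to 1.22), 0.846 (*ADAM12*, 0.802 to 0.892), 0.858 (*MMP27*) and 1.59 (*MMP23B*, 1.39 to 1.82). They were 1.59 for *ADAMTS18* (1.07 to 2.41), 1.25 for *ADAM33* and 1.03 for *ADAMTS6*. *ADAMTS14* had 38.7 CPM and 62.2 CPM, with intervals that did not overlap (32.9 to 45.2 and 50.6 to 75.7). *ADAMTS3*, led by tenocyte-like cells in the Normal-labelled library, had a ratio of 1.62. *MMP23B* was above 1 in tenocyte-like cells as well (1.66, 1.44 to 1.94), with 140 CPM and 84.4 CPM.

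In blood endothelial-like cells 4 of 40 members were at least 2-fold higher in the HVP-labelled library (2.06% of all genes) and 0 at least 2-fold lower (3.4%), while 29 lay within 1.5-fold (83.6%). They were *MMP2* (2.15), *ADAMTSL3* (2.67), *MMP11* (2.39) and *ADAMTS18* (7.52, 3.15 to 21.8, from 37 and 6 UMIs). In the jointly formed cluster *MMP2* was at 1.82, and the other 3 were still past 2-fold. The fibroblast gene *COL1A1* was 1.87 times and *DCN* 2.23 times higher in the same cells (2262 and 1212 CPM, and 193 and 86.6 CPM), and the part of free or admixed fibroblast RNA in these 4 ratios was not tested. Of members with higher levels than these 4 in blood endothelial-like cells, *ADAMTS9* (0.672, 0.624 to 0.724), *TIMP4* (0.635, 0.554 to 0.728) and *ADAMTS4* (0.743) were lower in the HVP-labelled library. *ADAMTS4* had 141 CPM and 190 CPM there, below its 344 CPM and 373 CPM over all kept cells. Other such members had ratios of 0.852 (*MMP15*), 0.853 (*ADAMTS1*), 0.947 (*TIMP3*), 0.992 (*ADAM10*), 1.07 (*TIMP2*) and 1.39 (*MMP16*). In the same cells the endothelial gene *PECAM1* had a ratio of 0.787 and *VWF* of 1.10, and the median mitochondrial share was 10.2% and 7.40%. Their part in these ratios was not tested. *ADAMTS9* was also lower, with intervals below 1, in fibroblast-like (0.687) and tenocyte-like cells (0.739) and in the *APOC3* (0.738) and *NPY7R* clusters (0.769). In the *FSHR* cluster its ratio was 0.834 (0.676 to 1.03). *ADAM20* had 63.0 CPM and 53.5 CPM in blood endothelial-like cells.

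In the *NPY7R* cluster 5 of 37 members were at least 2-fold higher (3.19% of all genes) and 0 at least 2-fold lower (1.55%), while 28 lay within 1.5-fold (84.9%). They were *MMP1*, whose UMIs lay in few cells, *ADAMTSL3* (4.20), *MMP27* (2.61, interval 0.977 to 8.76), *ADAMTSL5* (2.54) and *MMP23B* (2.30). With both libraries clustered together *ADAMTSL3* turned round in the matching cluster (0.646) and *ADAMTSL5* was at 1.62 (0.968 to 2.82), while *MMP23B* was at 2.20 and *MMP27* at 2.03. In the *NPY7R* cluster the smooth muscle genes *MYH11* (3.28) and *ACTA2* (1.75) and the fibroblast genes *DCN* (1.97), *COL3A1* (1.89) and *COL1A1* (1.72) also had ratios above 1, and their part in the members' ratios was not tested. *ADAMTSL1* was 12.1 times higher in the *APOC3* cluster of the HVP-labelled library (227 and 18.8 CPM), but 2.35 times in the jointly formed cluster. There *ADAMTS4* was lower in both groupings (0.363 and 0.423), and 2 of 36 members (*ADAMTSL1* and *MMP11*) were at least 2-fold higher (6.39% of all genes) and 1 at least 2-fold lower (3.33%), while 25 lay within 1.5-fold (74.3%). *MMP11* (2.13) was at 0.962 in the jointly formed cluster.

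The smallest classes held few members with at least 20 UMIs. In melanocyte-like cells, 94 in the HVP-labelled library and 62 in the Normal-labelled library, 5 of 13 members with at least 20 UMIs were at least 2-fold higher (8.07% of all genes) and 1 was at least 2-fold lower (2.11%), while 4 lay within 1.5-fold (71.9%). *TIMP3* had 235 CPM and 101 CPM (ratio 2.34, 1.46 to 3.91), *MMP2* 156 CPM and 54.9 CPM (2.84, 1.52 to 5.80) and *ADAMTS1* 118 CPM and 279 CPM (0.422, 0.281 to 0.629). *ADAMTSL1* (2.08), *ADAM33* (3.73) and *ADAMTS4* (2.17) rested on 3 to 41 UMIs in each library. *COL1A1* was 2.30 times, *COL3A1* 3.93 times and *MYH11* 3.49 times higher in the same cells, and their part in these ratios was not tested. In Schwann-like cells 2 of 15 members were at least 2-fold higher (7.64% of all genes) and 1 at least 2-fold lower (1.47%), while 9 lay within 1.5-fold (74%). *TIMP3* was 2.01 times higher there (1499 and 746 CPM, 1.66 to 2.45), and its ratio was 1.91 in the jointly formed cluster. The endothelial gene *VWF* had 35 UMIs (103 CPM) in these Schwann-like cells of the HVP-labelled library and 0 UMIs in those of the Normal-labelled library, *PECAM1* had 58.7 CPM and 105 CPM, and *COL1A1* had a ratio of 0.676. Their part in the *TIMP3* ratio was not tested. *MMP16* had a ratio of 2.55 (0.953 to 8.55, from 24 and 5 UMIs), and *ADAM12* was lower (0.162), from 7 and 23 UMIs. In mesothelial-like cells 2 of 14 were at least 2-fold higher (4.74%), 1 at least 2-fold lower (3.2%) and 10 within 1.5-fold (74.2%). In satellite cell-like cells, 33 in the HVP-labelled library and 39 in the Normal-labelled library, 1 of 9 was at least 2-fold higher (5.71%), 1 at least 2-fold lower (6.81%) and 7 within 1.5-fold (69.3%).

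**Figure D5:**
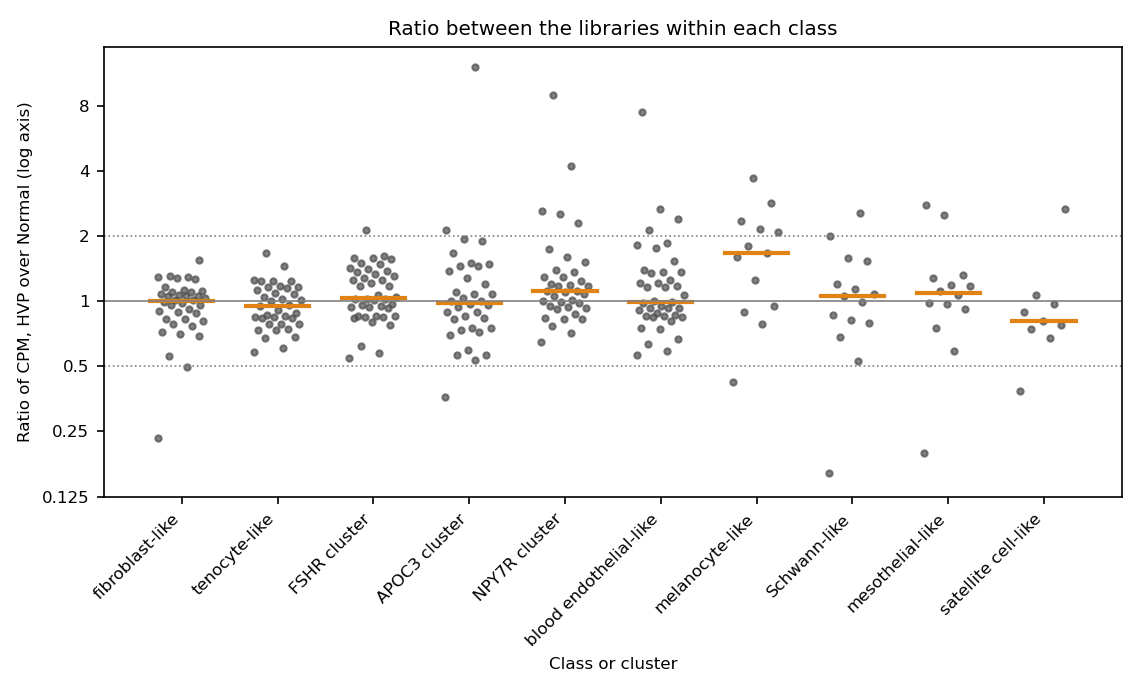
Ratio of CPM, HVP over Normal (log axis), of every member with at least 20 UMIs in 1 library of that class (grey points) in the 10 classes and clusters set side by side, with the median as an orange line and dotted lines at 2-fold. Medians lie between 0.808 (satellite cell-like) and 1.68 (melanocyte-like), and the highest single ratio is that of *ADAMTSL1* in the *APOC3* cluster (12.1).

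Other genes of matrix turnover were taken from a list of 32, of which 26 were measured, all with at least 20 UMIs. None of the 26 was at least 2-fold higher or lower over all kept cells, where 2.11% and 5.17% of all genes were, and the median ratio was 1.12, against 0.957 over all genes. *VCAN* and *ACAN*, which encode the proteoglycans that the ADAMTS aggrecanases cut, were highest in the *FSHR* cluster, with 377 CPM and 415 CPM for *VCAN* and 56.3 CPM and 69.7 CPM for *ACAN*. Unlike the members, these genes were not left out of clustering, and *ACAN* was among the leading genes of that cluster in the Normal-labelled library. *FAP*, a serine protease of activated fibroblasts, had a ratio of 1.71, and *CTSK*, a collagen-cutting cathepsin, 1.56, with its highest level in tenocyte-like cells (1493 and 1395 CPM). *HTRA1*, a secreted serine protease, was highest in the *NPY7R* cluster (2076 and 1872 CPM), where *ADAMTS4* and *TIMP3* were also high. *RECK*, a membrane-anchored MMP inhibitor, was highest in tenocyte-like cells, as *TIMP2* was, with 91.5 CPM and 112 CPM.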

How the data were processed

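The authors deposited UMI counts per gene and barcode for each library, made with Cell Ranger 7.1.0 on GRCg7b with mitochondrial genes added by hand. These counts were not normalized. Members and gene lists were chosen with earlier results of these data known. Members were named when they had at least 200 UMIs over both libraries, were TIMP genes, or had 1 of the 5 highest or lowest ratios.

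Barcodes with more than 1000 genes were kept. Each library was clustered with Seurat 5.3.0 (log normalization, 2000 variable genes without the 52 members, *DCT*, *TYR* and *TYRP1*, 20 principal components, resolution 0.2). A cluster was named from 21 marker lists when at least 3 markers had a CPM ratio of at least 2 to other cells and were found in at least 10% of its cells. The details of naming and the pairing of 3 unnamed clusters by at least 3 shared leading genes were set after the clusters were seen. Doublets were called with Scrublet (scanpy 1.11.5) and kept: it marked 0.0699% of barcodes in the HVP-labelled library, too few to have worked, and 1.91% in the Normal-labelled library. UMIs were summed per class and divided by the class total (CPM). Sums have exact Poisson, shares Clopper-Pearson and ratios conditional binomial intervals. For shares of cells, each cell was thinned to 2000 UMIs, which left out 80 HVP cells and 189 Normal cells. Genes were placed on GRCg7b by the RefSeq table, where 49 of 52 symbols matched. Ratio intervals and leading classes were tested on simulated data. Simulated leading classes were often not recovered where the top classes had near levels. Alternatives were other cell filters, UMI minimums, fold limits, resolutions, joint clustering, TMM factors (edgeR 4.0.16), the mean over cells, totals leaving out mitochondrial and ribosomal protein genes, thinning and members allowed among the variable genes.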

Additional observations from a re-analysis of the deposited data

Results flagged for a closer look

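The members below had opposite directions between the libraries in 2 classes, with both counting intervals excluding 1. The list is not complete, because members with a ratio nearer to 1 in either class were left out. Among those left out, *ADAMTSL3* had a ratio of HVP over Normal of 1.28 in fibroblast-like cells and 0.835 in tenocyte-like cells. *ADAM12*, also left out, had a ratio of 1.25 in tenocyte-like cells and 0.495 in fibroblast-like cells. The differences between classes were not tested. *TIMP3* had a ratio of HVP over Normal of 2.34 in melanocyte-like cells and 0.385 in satellite cell-like cells, the second from 20 and 49 UMIs. *ADAMTSL2* had a ratio of 2.77 in mesothelial-like cells (1.07 to 8.43, from 20 and 6 UMIs) and 0.585 in tenocyte-like cells. *MMP11* had a ratio of 2.39 in blood endothelial-like cells and 0.233 in fibroblast-like cells, the second from 8 and 22 UMIs. In the 2 fibroblast-like clusters formed from both libraries together, *MMP11* was at 2.02 (from 3 and 1 UMIs) and 0.282 (from 5 and 9 UMIs). The fibroblast gene *COL1A1* had ratios of 2.30 in melanocyte-like, 2.60 in mesothelial-like, 1.87 in blood endothelial-like and 0.137 in satellite cell-like cells.

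Barcodes with at most 1000 genes were left out of the main comparisons. A few measured members were at least 2-fold higher in them than in kept cells, with the interval of that ratio above 1. Other measured members had an interval above 1 but a ratio below 2-fold, and their values are not listed. They were *ADAM10* and *ADAM20* in both libraries, *MMP28* in the HVP-labelled library and *ADAMTS17* in the Normal-labelled library. *ADAM8* had 8.78 CPM in such barcodes of the HVP-labelled library, against 3.46 CPM in its kept cells, and 6.71 CPM in those of the Normal-labelled library, against 2.17 CPM. *MMP9* had 13.5 CPM in the HVP-labelled library, from 23 UMIs of which 12 lay in 1 barcode, against 0.582 CPM in kept cells. *ADAMTS18* had 7.74 CPM in the Normal-labelled library, from 15 UMIs of which 6 lay in 1 barcode, against 1.93 CPM in kept cells.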

How the results depend on the processing

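The 3 of 47 members past 2-fold over all kept cells (7.28% of all genes) became 1 of 46 with 300 to 4000 genes and under 5% mitochondrial UMIs (8.69%), and 12 of 47 at a fold of 1.5 (19.2%). Under every other setting tried they numbered 2 to 4 (4.00% to 9.87% of all genes), not always the same ones: *MMP1* was past 2-fold and *MMP23B* was not for the mean over cells and after thinning, and *ADAMTS3* was added with TMM factors (2.12) and without the top 5% of Scrublet scores (2.04). The members with the same leading class numbered 30 to 36 (47.0% to 53.5% of all genes). Directions turned as follows, and the cause was not tested. In fibroblast-like cells, the ratio was 1.23 (*ADAMTS5*), 1.52 (*ADAM9*), 1.01 (*ADAMTS12*), 1.08 (*ADAMTS15*), 1.02 (*ADAM33*) and 0.525 (*ADAMTSL2*) with more than 500 genes. There it was 1.03 (*ADAMTS5*), 1.45 (*ADAM9*), 1.08 (*ADAMTS15*) and 0.510 (*ADAMTSL2*) with 300 to 4000 genes and under 5% mitochondrial UMIs, and 1.14 (*ADAMTS5*), 1.46 (*ADAM9*), 1.11 (*ADAMTS15*), 1.08 (*ADAM33*) and 0.485 (*ADAMTSL2*) with members allowed among the variable genes. Over all kept cells it was 0.992 (*ADAM33*) and 0.937 (*MMP17*) with 300 to 4000 genes, 0.953 (*TIMP3*) for the mean over cells and 1.01 (*ADAMTS5*) with TMM factors. After thinning it was 0.937 (*TIMP3*), 0.972 (*ADAMTS12*), 1.00 (*ADAM20*) and 0.981 (*ADAMTS13*), and with weighting to the same UMI share 1.14 (*ADAMTS4*), 0.941 (*ADAM12*), 1.00 (*MMP15*), 0.966 (*ADAMTS12*), 1.04 (*ADAM20*) and 1.27 (*MMP28*). Apart from these turns, 103 ratios over all kept cells and 35 ratios in the leading class moved outside their main counting interval, over all settings. Inside that interval were 288 and 361 ratios. *MMP9* rests on few UMIs. No paired analysis was possible because each group is 1 library.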
